A study of Mus musculus with 384 samples.

Results

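Interferon-stimulated genes (ISGs) are described here in single T cells from B16F10 melanoma, a transplantable mouse skin tumour of the C57BL/6 strain. The 39 ISGs were taken by symbol from the rows of the expression table, which holds 23420 genes, and all 39 were present. They were separated into 29 IFIT/OAS-type members and 10 members of the guanylate-binding protein (GBP) and immunity-related GTPase (IRG) families, called GBP/IRG-type. The study compared tumour-infiltrating T cells labelled IL27raKO (KO) with wild-type (WT) cells, to ask what the cytokine interleukin-27 does in the tumour. The 4 groups were KO CD8, WT CD8, KO CD4 and WT CD4 cells, all from C57BL/6 mice bearing the same tumour line, each on 1 plate of 94 wells with a single cell, a Population well and a well without a cell. Titles name the sources KO4 and WT4, and these were read as 1 source per genotype with 1 plate per cell type. Under that reading genotype, animal and plate cannot be told apart. Plates were grouped by their titles, 2 of which name CD4, although the treatment label mentions CD8 cells only. Mouse age, the number of mice and the number of cells in a Population well are not given in the labels.

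Interferons are the cytokines that tell cells that viruses or other intruders are near. Type I interferon acts through the receptor chains IFNAR1 and IFNAR2 and the kinases JAK1 and TYK2 on ISGF3, a complex that holds STAT2 and IRF9 and binds a DNA motif called the ISRE. Type II interferon, IFN-gamma, which activated T cells and NK cells make, acts through IFNGR1 and IFNGR2, and many of its target genes carry a motif called GAS. IFIT, OAS, MX1 and ISG15 are textbook products of type I interferon, and the GBP and IRG families of GTPases, which attack the vacuoles of intracellular microbes, are strongly induced by IFN-gamma. Many ISGs answer to both kinds of interferon, and the interleukin-27 receptor also signals through JAK kinases and STAT3.

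Promoter letters of a few members show the motifs searched for. The GBP/IRG-type class was set by gene family, and all other members form the IFIT/OAS-type class, whatever their family. These motifs were not used to set the classes. RefSeq windows (build GRCm38.p6) from 250 bases before to 50 bases after the start were matched for 28 of the 39 members, with 33 windows in all. Those of Rtp4, Dhx58, Oas2, Gbp6, Zbp1, Gbp4, Mx1, Usp18, Parp9, Parp14 and Iigp1 were not matched. An ISRE core was searched as GAAANNGAAA on both strands (TTTCNNTTTC on the other), and a GAS core as TTCNNNGAA, which reads the same on both. The ISRE letters stood in 17 of 33 member windows (51.5%), against 3.44% of all 32851 windows. The GAS letters stood in 10 member windows (30.3%), against 8.30% of all windows. By gene, 11 of 21 IFIT/OAS-type and 6 of 7 GBP/IRG-type members held an ISRE core, and 7 and 3 of them held a GAS core. The 200 bases before the start are printed 5′ to 3′ on the gene's own strand for 3 antiviral effectors on which the CD8 results turn, for the GTPases Igtp and Gbp7, which were higher in KO CD4 cells by 1 log2 or more, for Irgm2, a neighbour of Igtp, and for Irf7, whose window holds neither motif. Capitals mark ISRE and GAS cores, and overlapping cores merge into a longer run.
Ifit3 (chr19:34583329-34583528, plus strand): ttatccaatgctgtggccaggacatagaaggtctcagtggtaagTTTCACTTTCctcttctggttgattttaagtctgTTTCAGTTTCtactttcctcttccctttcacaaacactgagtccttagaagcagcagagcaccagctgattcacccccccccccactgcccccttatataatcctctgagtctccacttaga
Ifit1 (chr19:34640689-34640888, plus strand): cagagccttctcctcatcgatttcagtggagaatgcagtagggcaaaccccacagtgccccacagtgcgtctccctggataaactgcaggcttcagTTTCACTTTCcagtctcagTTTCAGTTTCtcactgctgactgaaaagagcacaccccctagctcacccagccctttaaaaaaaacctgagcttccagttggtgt
Isg15 (chr4:156200819-156201018, minus strand): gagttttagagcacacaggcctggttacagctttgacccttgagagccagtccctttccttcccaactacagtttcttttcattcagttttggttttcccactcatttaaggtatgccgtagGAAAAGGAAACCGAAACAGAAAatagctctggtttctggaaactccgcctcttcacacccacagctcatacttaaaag
Igtp (chr11:58199356-58199555, plus strand): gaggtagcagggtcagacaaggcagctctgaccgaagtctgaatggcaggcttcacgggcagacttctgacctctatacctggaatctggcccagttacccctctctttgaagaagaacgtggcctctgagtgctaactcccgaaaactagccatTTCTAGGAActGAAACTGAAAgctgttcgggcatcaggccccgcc
Irgm2 (chr11:58214777-58214976, plus strand): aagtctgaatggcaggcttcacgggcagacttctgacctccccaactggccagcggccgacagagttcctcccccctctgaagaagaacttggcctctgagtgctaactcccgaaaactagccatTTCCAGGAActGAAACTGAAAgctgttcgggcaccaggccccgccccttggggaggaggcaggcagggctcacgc
Gbp7 (chr3:142530136-142530335, plus strand): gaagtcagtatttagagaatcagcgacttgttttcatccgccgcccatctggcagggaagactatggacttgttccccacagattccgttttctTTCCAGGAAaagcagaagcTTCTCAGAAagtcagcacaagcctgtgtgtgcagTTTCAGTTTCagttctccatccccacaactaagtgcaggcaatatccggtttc
Irf7 (chr7:141266425-141266624, minus strand): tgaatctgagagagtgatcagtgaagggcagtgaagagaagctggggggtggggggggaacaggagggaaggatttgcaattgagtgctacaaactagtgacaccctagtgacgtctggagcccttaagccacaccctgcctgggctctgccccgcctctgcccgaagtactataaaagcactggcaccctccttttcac
In Ifit3 the ISRE cores began at -156 and -122, and in Ifit1 at -104 and -85, counted from the start of the gene. Isg15 held 3 overlapping cores from -78. Igtp and Irgm2 each held a GAS core shortly before an ISRE core, at -45 and -34 in Igtp and at -75 and -64 in Irgm2. These neighbours on chromosome 11 shared a run of 40 identical bases, the longest among 522 pairs of member windows, whose median was 8. A match of letters describes the window and does not show that a factor binds there.

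The plates differed in depth and in RNA of other cells. A gene was called detected at 1 FPKM (fragments scaled for library size and the length of the transcript) or more, and cells with 1000 or more detected genes were kept. The kept cells were 77 of 94 KO CD8, 72 of 94 WT CD8, 78 of 94 KO CD4 and 74 of 94 WT CD4, with medians of 2243, 2530.5, 2091 and 2047 detected genes. No member was above 0 in any of the 4 no-cell wells. Cd4 was detected in 91% of KO and 89.2% of WT CD4 cells and in 1 KO CD8 cell. Cd8a or Cd8b1 was detected in 92.2% of KO and 94.4% of WT CD8 cells. Among CD4 cells Cd8a was detected in 2 WT cells and no KO cell, but Cd8b1 in 23.1% of KO and 25.7% of WT cells. Its highest level there was 4.79 FPKM in KO and 709.3 FPKM in WT. Apart from Cd8b1, the lineage markers matched the titles. At least 1 CD3 chain or Cd2 was detected in 97.2% to 98.7% of the cells of each plate. Cells with 10 FPKM or more of a melanoma, myeloid or B cell marker or of the other lineage's Cd4 or Cd8a are called mixed cells below. Cd8b1 was not part of this rule. Mixed cells were 24 KO CD8 cells (31.2%), 30 WT CD8 cells (41.7%), 11 KO CD4 cells (14.1%) and 18 WT CD4 cells (24.3%). Il27ra, the targeted gene, was detected in 57.1% of KO and 51.4% of WT CD8 cells and in 47.4% of KO and 36.5% of WT CD4 cells. The Population libraries held 92.9 FPKM in KO and 155.4 FPKM in WT CD8, and 133.4 FPKM in KO and 244.6 FPKM in WT CD4. The deleted part of the gene is not given in the labels, so these values do not check the genotype.

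The members fell along a wide range of detection, and the antiviral effectors held both ends of it. Eif2ak2, which encodes the double-stranded RNA kinase PKR, was detected in 94.7% of all kept cells, but at a median of only 6.95 FPKM where detected, and 66% of its detections lay under 10 FPKM. Oas3, an oligoadenylate synthetase that activates RNase L, was detected in 64.9% of KO and 48.6% of WT CD8 cells and in 48.7% of KO and 47.3% of WT CD4 cells, again mostly at a low level (67.7% of detections under 10 FPKM). Samhd1, which hydrolyses the deoxynucleotides that viruses need, was detected in 58.4% of KO and 45.8% of WT CD8 cells and in 73.1% of KO and 58.1% of WT CD4 cells, with a median of 197.4 FPKM where detected. The classic interferon effectors were rare but strong where found. Ifit1 was detected in 33 of all kept cells (11%), never under 10 FPKM, and Ifit3 in 38 cells (12.6%) at a median of 492.3 FPKM where detected. Ifit1 and Ifit3 encode proteins of the family that binds foreign RNA. Rsad2, which encodes viperin, and Oasl2 were the least detected, each in 16 cells (5.32%). Rsad2 was listed at 0 in all 72 WT CD8 cells, which allows a share of up to 4.17% by counting error alone.

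Among the sensors, Zbp1, which senses nucleic acids and can start cell death, was detected in 39.9% of all kept cells. Ddx58, which encodes the RNA sensor RIG-I, was detected in 32.2%, and its relative Dhx58 (LGP2) in 14.3%. Ifih1 (MDA5) was detected in 12.3%. Of the signalling and feedback factors, Irf9, the DNA-binding part of ISGF3, was detected in 38.5% of cells and Irf7, which amplifies type I interferon production, in 34.2%. Stat2 was detected in 20.3%, and Usp18, which strips ISG15 from proteins and damps the type I receptor, in 14%. Dtx3l, a ubiquitin ligase that pairs with PARP9, led the remaining IFIT/OAS-type members with 61.5%, followed by the pro-apoptotic Xaf1 with 42.9% and Parp14 with 37.9%. Parp9, Trim25, Ifi35 and Rtp4 lay between 22.6% and 35.6%, and the effectors Isg20, Ifit2, Mx1, Oas1a and Oas2 between 5.65% and 20.9%. Bst2, which encodes tetherin and also marks plasmacytoid dendritic cells, was detected in 31.1% to 36.4% of the cells of each plate. The other plasmacytoid markers fixed for this work, Siglech and Ccr9, were detected in 0 of 77 KO CD8 cells, which allows a share of up to 3.90%. Each was detected in 1 WT CD8 and 1 KO CD4 cell, and in WT CD4 cells Siglech was detected in 2 and Ccr9 in 4.

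Most GBP/IRG-type genes were found in more cells than most IFIT/OAS-type genes, and at higher levels than Eif2ak2 and Oas3 where detected. Ifi47, an IRG, was detected in 66.2% of KO CD8 cells (95% exact Clopper-Pearson interval 54.6 to 76.6), 72.2% of WT CD8 cells (60.4 to 82.1), 65.4% of KO CD4 cells (53.8 to 75.8) and 60.8% of WT CD4 cells (48.8 to 72), with a median of 670.2 FPKM where detected. These intervals cover counting error only, and those of the 4 plates overlap. Gbp4 followed with 54.2% of all kept cells, Gbp7 with 50.5%, Igtp with 48.5%, Gbp6 with 45.5% and Irgm1 with 44.9%. Irgm2 was detected in 30.2%, Gbp2 in 26.6% and Gbp3 in 22.6%. Iigp1, a vacuole-attacking IRG, stood apart from the rest by cell type, with detection in 14 KO CD4 cells (17.9%) and 11 WT CD4 cells (14.9%), against 1 KO CD8 cell (1.30%) and 2 WT CD8 cells (2.78%). Many members are close neighbours or close relatives. Chromosome 11 carries 8 of them, the annotated spans of Igtp and Irgm2 overlap on the same strand, and those of Parp9 and Dtx3l overlap on opposite strands, so values within the Ifit, Oas, Gbp and Irg families and these pairs are uncertain.

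**Figure D1:**
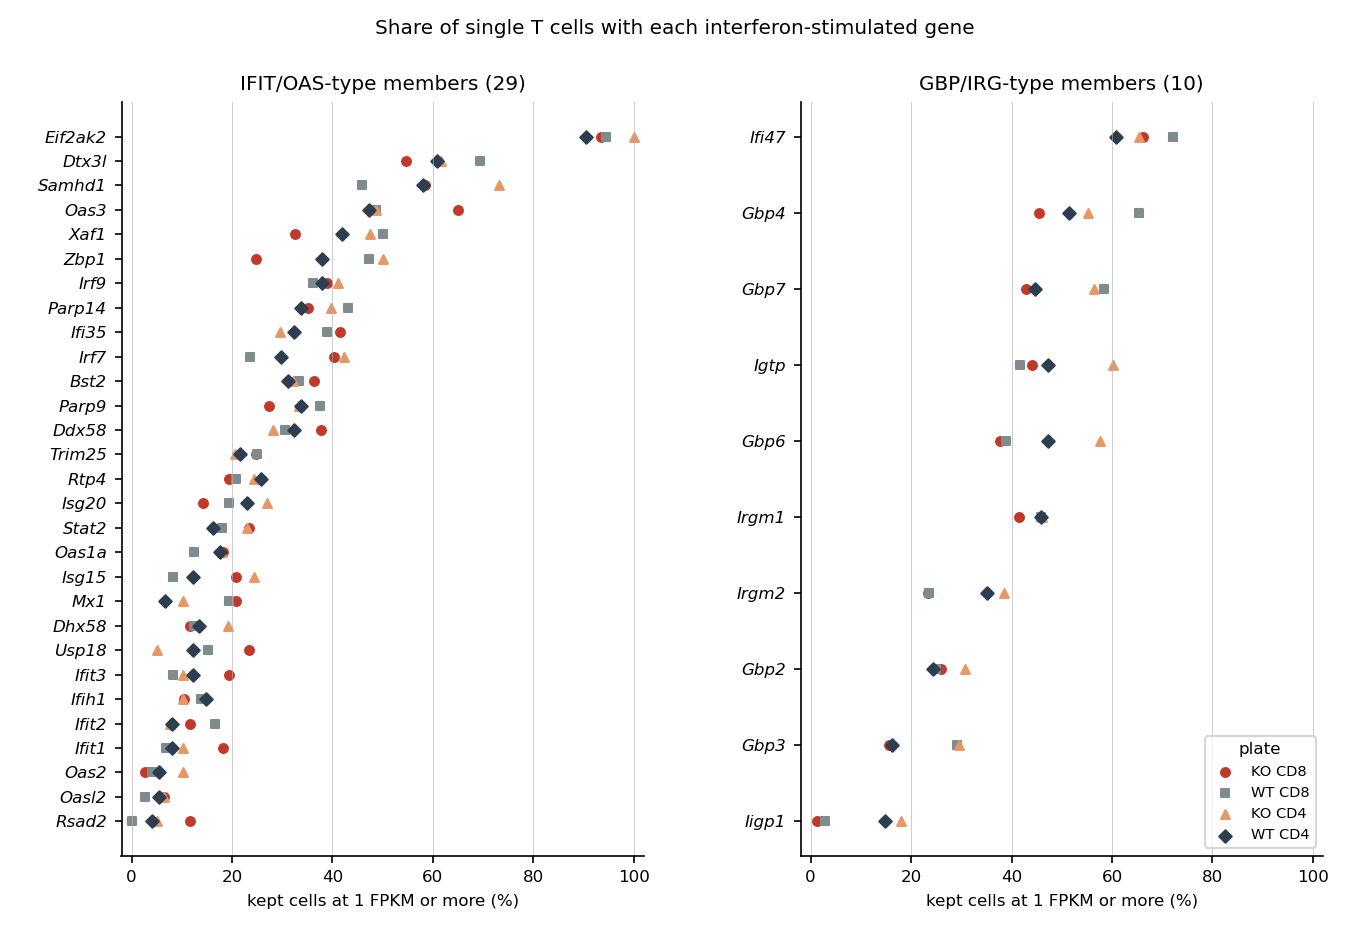
Share of kept cells at 1 FPKM or more for each member on the 4 plates, ordered by the mean share, with IFIT/OAS-type members in the left panel and GBP/IRG-type members in the right. Eif2ak2 was detected in over 90% of cells of every plate, Rsad2 in 0.0% to 11.7%, and Iigp1 in more CD4 than CD8 cells.

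Per cell, members of both classes were detected side by side. KO CD8 cells held a median of 6 IFIT/OAS-type members (range 1 to 26), WT CD8 cells 7 (1 to 22), KO CD4 cells 8 (3 to 22) and WT CD4 cells 7 (2 to 27). At least 5 were detected in 76.6% of KO CD8 cells (65.6 to 85.5) and 76.4% of WT CD8 cells (64.9 to 85.6), and in 83.3% of KO and 82.4% of WT CD4 cells. With detection set at 10 FPKM the shares were 46.8% in KO and 58.3% in WT CD8 cells, and 60.3% in KO and 51.4% in WT CD4 cells. The median number of GBP/IRG-type members was 3 of 10 in KO CD8 cells and 4 on each of the other plates, and 6 KO CD8, 2 WT CD8, 5 KO CD4 and 3 WT CD4 cells held none of them. Spearman's rank correlation across cells between the numbers of both classes, adjusted for the number of detected genes, was 0.58 in KO CD8, 0.29 in WT CD8, 0.37 in KO CD4 and 0.44 in WT CD4 cells. It describes cells that share a library and carries no test.

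Pooled over the plates, other strong effectors were detected more often in cells with Ifit3 than in cells without it. Of the 38 cells with Ifit3, 20 also held Ifit1 (52.6%, interval 35.8 to 69), against 13 of the cells without Ifit3 (4.94%, 2.66 to 8.30). KO CD8 cells made up 15 of the 38 and 10 of the 20. Isg15, a ubiquitin-like protein, was detected in 50% of the cells with Ifit3 and 11.8% of those without. Irf7 was detected in 68.4% and 29.3%, and Rsad2 in 21.1% and 3.04%. Single plates did not all show this. Irf7 was detected in 1 of 6 WT CD8 cells with Ifit3 and 16 of 66 without it. In KO CD4 cells Mx1 was detected in 1 of 8 with Ifit3 and 7 of 70 without it. GTPases went with Ifit3 as well, Ifi47 with 86.8% and 63.1% and Gbp7 with 73.7% and 47.1%. Among GTPases, Igtp went with Gbp6, which was detected in 59.6% of the cells with Igtp and 32.3% of those without it. Igtp went with Ifi47 likewise (78.1% and 54.8%). Depth moved most with Ifit3 and with Igtp on the WT CD8 plate, and its part was not tested on any plate. The 6 WT CD8 cells with Ifit3 held a median of 3628.5 detected genes and those without it 2513.5, whereas KO CD8 cells held 2287 and 2239. WT CD8 cells with Igtp held a median of 3186 detected genes and those without it 2299, whereas KO CD8 cells held 2268 and 2209. CD4 cells with and without Igtp held 2111 and 1912 in KO, and 2171 and 1966 in WT. After adjustment for detected genes, the median rank correlation between pairs of GBP/IRG-type members was 0.25 in KO CD8, 0.11 in WT CD8, 0.33 in KO CD4 and 0.18 in WT CD4 cells. Between pairs of IFIT/OAS-type members it was 0.20, 0.07, 0.09 and 0.07 in the same order of plates. Between pairs that cross the classes it was 0.20, 0.04, 0.09 and 0.06, so IFIT/OAS-type members went with each other about as they went with GBP/IRG-type members. Over all gene pairs it lay between 0.00466 and 0.00979. These medians cover the 9 GBP/IRG-type and 20 IFIT/OAS-type members detected in at least 10% of the cells of every plate.

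**Figure D2:**
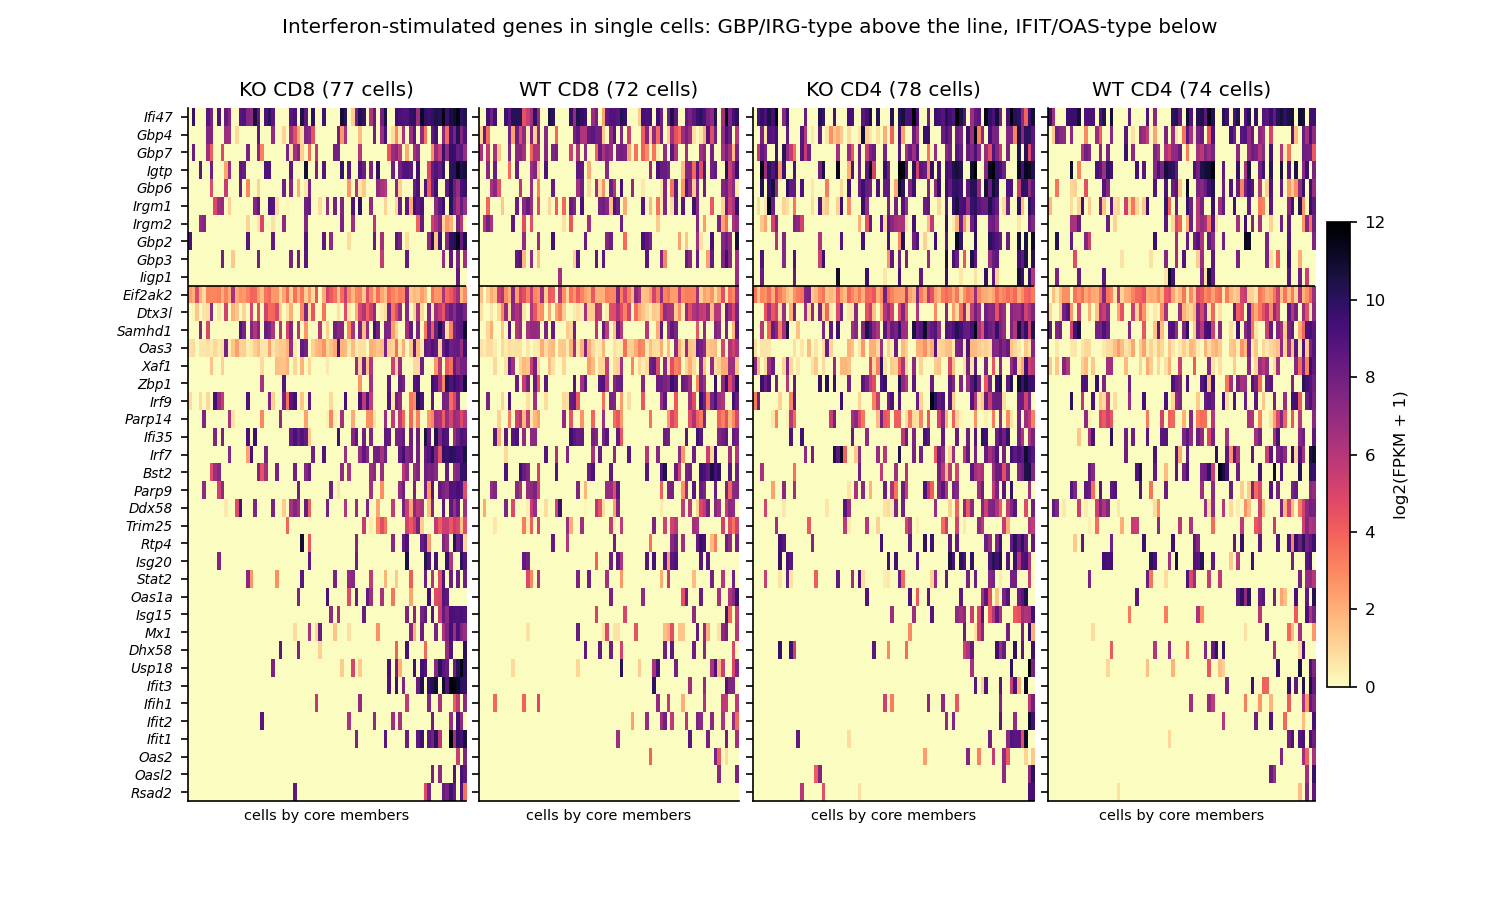
Level of each member, log2(FPKM + 1), in every kept cell. Columns are cells, ordered on each plate from few to many of 12 core IFIT/OAS-type members, and rows are members, GBP/IRG-type above the line. Eif2ak2 forms a low, even band. Ifit3, Ifit1, Rsad2 and Oasl2 count toward this order, so their place toward the right is partly built in. Rsad2 was detected in no WT CD8 cell. Cells with at least 6 core members are most numerous on the KO CD8 plate.

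In CD8 cells, KO minus WT differences were led by Irf7, Ifit3, Isg15, Samhd1 and Ifit1, which were higher in KO, and by Zbp1, which was lower. Each group is 1 plate and cells are not replicates, so differences of plate means of log2(FPKM + 1) have no test. Irf7 averaged 3.27 ± 4.15 in KO cells (SD, 77 cells) and 1.58 ± 3.01 in WT cells (SD, 72 cells), a difference of 1.69 log2. It was detected in 40.3% of KO cells (29.2 to 52.1) and 23.6% of WT cells (14.4 to 35.1). Ifit3 averaged 1.94 ± 4.01 in KO and 0.66 ± 2.23 in WT cells. Its levels ran from 0 through a median of 0 to 4420.5 FPKM in KO cells and to 935.5 FPKM in WT cells, and it was detected in 19.5% (11.3 to 30.1) and 8.33% (3.12 to 17.3). Ifit1 was detected in 18.2% of KO cells (10.3 to 28.6) and 6.94% of WT cells (2.29 to 15.5), with means of 1.60 ± 3.48 and 0.52 ± 1.95. Isg15 was detected in 20.8% of KO and 8.33% of WT cells, with means of 1.66 ± 3.30 and 0.50 ± 1.74. Samhd1 averaged 3.85 ± 3.72 in KO and 2.77 ± 3.45 in WT cells. Zbp1 went the other way, with 1.98 ± 3.63 in KO and 3.60 ± 3.98 in WT cells, and detection in 24.7% (15.6 to 35.8) and 47.2% (35.3 to 59.4). The intervals of KO and WT cells overlap by a small margin for Zbp1 and more widely for the others.

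Over the class, 27 of 29 IFIT/OAS-type members were detected in at least 10% of either plate, and 14 of them were higher in KO and 13 lower. These counts were 22 and 6 in cells matched on detected genes, 22 and 5 with arithmetic means, and 19 and 8 without mixed cells. The median KO minus WT difference was 0.31 log2, against -0.22 over 8117 genes that passed the same filter, of which 32% were higher in KO. The 5 members named above were higher by 1 log2 or more, against 2.07% of all genes, and Zbp1 was the only one lower by that much, against 9.19% of all genes. The class median lay at -0.10 when only members detected in 25% of cells were taken, so its sign rests on the rarer genes. A core of 12 strongly interferon-induced members (Ifit1, Ifit2, Ifit3, Oas1a, Oas2, Oas3, Oasl2, Mx1, Rsad2, Isg15, Usp18 and Irf7) had a median of 0.89 over the 10 that passed, and 9 of these were higher in KO. Ifit1, Ifit3, Isg15 and Rsad2 passed the filter through the KO plate alone, so they had to be higher there, and the counts over passing members are a description only. Over all members without the filter, the median was 0.31 for the 29 IFIT/OAS-type members (15 higher, 14 lower) and 0.82 for the core of 12 (10 higher, 2 lower). The core, as the other gene lists, was chosen with earlier results of these data known. Outside it, 1 of the 4 sensors was higher and 3 lower. Of Parp9, Parp14, Dtx3l, Trim25, Ifi35, Rtp4 and Xaf1, 1 was higher and 6 lower. Samhd1, Irf9 and Stat2 were higher, and Isg20, Bst2 and Eif2ak2 lower. The GBP/IRG-type genes had a median of -0.09 over 9 members, with 4 higher and 5 lower, from 0.90 for Igtp to -0.98 for Gbp4, and no member differed by 1 log2. With arithmetic means their median was 0.37 with 7 of 9 higher, and in the Population libraries it was 0.22 with 7 of 10 higher. The difference between the classes was not tested. Gbp4 was detected in 45.5% of KO CD8 cells (34.1 to 57.2) and 65.3% of WT CD8 cells (53.1 to 76.1).

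The Population libraries of the CD8 plates gave the same direction for most of these genes, but not for Isg15. Ifit1 had 150.6 FPKM in the KO and 16 FPKM in the WT library, Ifit3 184.2 and 53.2 FPKM, and Rsad2 28.1 and 2.59 FPKM. Irf7 had 173.7 FPKM in the KO and 115.7 FPKM in the WT library. Isg15 had 27.2 FPKM in the KO and 51.8 FPKM in the WT library, a difference of -0.90 log2 against 1.16 in single cells. Bst2 had 120.9 FPKM in the KO and 413.4 FPKM in the WT library. A bulk library cannot tell fewer cells with a transcript from less RNA per cell. Markers of other cells differed between these libraries in both directions, and their part was not tested. Siglech was at 76.6 FPKM in the KO and 0 in the WT library, and Ccr9 at 13 FPKM and 0. With Bst2, the plasmacytoid list summed to 210.5 FPKM in KO and 413.4 FPKM in WT. Sums were 494.8 and 346.5 FPKM for 7 myeloid markers and 490.6 and 221.9 FPKM for 3 NK cell markers. Among the myeloid markers Csf1r, Cd68, Cd14 and Itgam were lower in KO, and Lyz2, Fcer1g and Apoe higher. The 5 melanoma markers summed to 8.49 FPKM in KO and 56.7 FPKM in WT. Among 11761 genes of these libraries 18.6% were higher in KO by 1 log2 or more, as were 5 of 29 IFIT/OAS-type members, and 52.4% were higher by any amount, as were 18 of the 29.

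Cells with many core members at once were counted on each plate. At least 6 of the 12 core members were detected in 11 of 77 KO CD8 cells (14.3%, 7.35 to 24.1), 1 of 72 WT CD8 cells (1.39%, 0.0352 to 7.50), 3 of 78 KO CD4 cells (3.85%, 0.800 to 10.8) and 4 of 74 WT CD4 cells (5.41%, 1.49 to 13.3). The limit of 6 was chosen after the values were seen, and the full distribution is plotted. Over all 29 IFIT/OAS-type members the plates lay closer. At least 15 were detected in 11 KO CD8 cells (14.3%, 7.35 to 24.1), 5 WT CD8 cells (6.94%, 2.29 to 15.5), 8 KO CD4 cells (10.3%, 4.53 to 19.2) and 6 WT CD4 cells (8.11%, 3.03 to 16.8). The 11 KO CD8 cells with at least 6 core members had a median of 2587 detected genes, against 2212 in the other KO CD8 cells. Of the 11 cells, 3 were mixed cells. Without mixed cells the counts were 8 of 53 KO CD8 cells (15.1%) and 0 of 42 WT CD8 cells, which allows up to 7.14%. When cells of the plates were matched by detected genes they were 7 of 38 KO and 0 of 38 WT CD8 cells. The KO CD8 cells of this set come from 1 source.

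**Figure D3:**
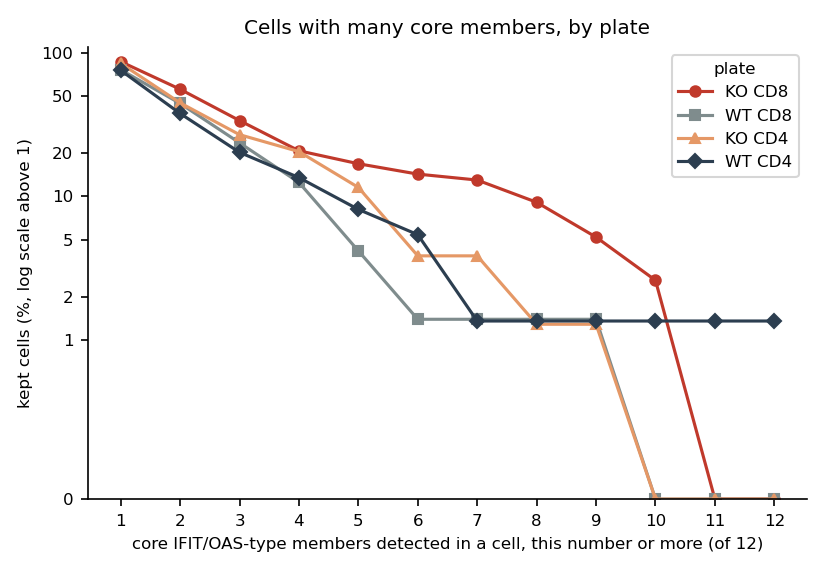
Share of kept cells (vertical axis, logarithmic above 1%) in which at least the number of core members on the horizontal axis was detected, by plate. KO CD8 cells lie above the other plates from 5 to 10 members, with 14.3% of cells at 6 or more, against 1.39% of WT CD8 cells.

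In CD4 cells the GBP/IRG-type genes were higher in KO. All 10 passed the filter and all 10 had a higher mean in KO, with a median difference of 0.68 log2, against -0.04 over 7063 genes, of which 46.5% were higher in KO. Gbp6, Gbp3, Igtp and Gbp7 were higher by 1 log2 or more, against 2.53% of all genes. Gbp6 averaged 5.06 ± 4.53 in KO cells (SD, 78 cells) and 3.18 ± 3.98 in WT cells (SD, 74 cells), and its median level was 150.9 FPKM in KO cells and 0 in WT cells. It was detected in 57.7% of KO cells (46 to 68.8) and 47.3% of WT cells (35.6 to 59.3). Igtp averaged 5.51 ± 4.86 in KO and 4.28 ± 4.68 in WT cells, with detection in 60.3% (48.5 to 71.2) and 47.3% (35.6 to 59.3). Gbp3 averaged 2.40 ± 3.88 in KO and 1.05 ± 2.54 in WT cells, and Gbp7 4.16 ± 3.89 and 3.12 ± 3.61. The other 6 differed by 0.27 (Iigp1) to 0.75 (Irgm1). The intervals of the KO and WT shares overlap for each of these genes.

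Population libraries of the CD4 plates leaned the same way for 9 of the 10 GTPases, with a median of 0.64 log2, where 50.6% of all genes were higher in KO. Igtp had 1700.1 FPKM in the KO and 1126.2 FPKM in the WT library, Gbp6 588.6 and 318.3 FPKM, and Gbp3 282.7 and 143.3 FPKM. Irgm2 was the exception, with 140.1 FPKM in the KO and 150.8 FPKM in the WT library. Markers of other cells also differed between these libraries, in both directions. The 7 myeloid markers summed to 392.4 FPKM in the KO and 54.7 FPKM in the WT CD4 library, and 5 of them were higher in KO. Fcer1g led them with a KO minus WT difference of 3.14 log2. Cd68 had 63 FPKM in KO and 23 FPKM in WT, Cd14 41.1 FPKM and 0, Apoe 29.5 FPKM and 0, and Lyz2 12.9 FPKM and 0, while Csf1r was at 0 in both and Itgam at 0 in KO and 4.57 FPKM in WT. The 3 NK cell markers summed to 258.5 FPKM in KO and 15.6 FPKM in WT, and Cd8b1 had 122.2 and 5.34 FPKM. The 3 plasmacytoid markers, Bst2 among them, summed to 341.9 FPKM in KO and 759.2 FPKM in WT. Lower in KO as well were the sums of the melanoma markers, with 40.7 FPKM in KO and 117.8 FPKM in WT. So were those of the stromal markers (36.6 FPKM in KO, 103.7 FPKM in WT) and the B cell markers (1.19 and 1.74 FPKM). The part of these cells in the Population difference was not tested. In single cells without mixed cells the median difference of the 10 genes was 1.06.

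IFIT/OAS-type genes were closer between genotypes in CD4 cells. Of 29 members 26 passed the filter, 18 were higher in KO and 8 lower, and the median was 0.20 log2. Samhd1 and Zbp1 were the ones higher by 1 log2 or more, and no member was lower by that much, against 2.51% of all genes. Samhd1 averaged 5.81 ± 3.92 in KO and 4.09 ± 3.95 in WT CD4 cells, with detection in 73.1% (61.8 to 82.5) and 58.1% (46.1 to 69.5). Zbp1 averaged 4.24 ± 4.42 in KO and 2.96 ± 4.01 in WT CD4 cells. The core of 12 had a median of 0.13 in CD4 cells, with 6 of the 9 that passed higher. Ifit3 was detected in 10.3% of KO and 12.2% of WT CD4 cells. Whether the genotype differences of these genes differ between CD4 and CD8 cells was not tested.

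**Figure D4:**
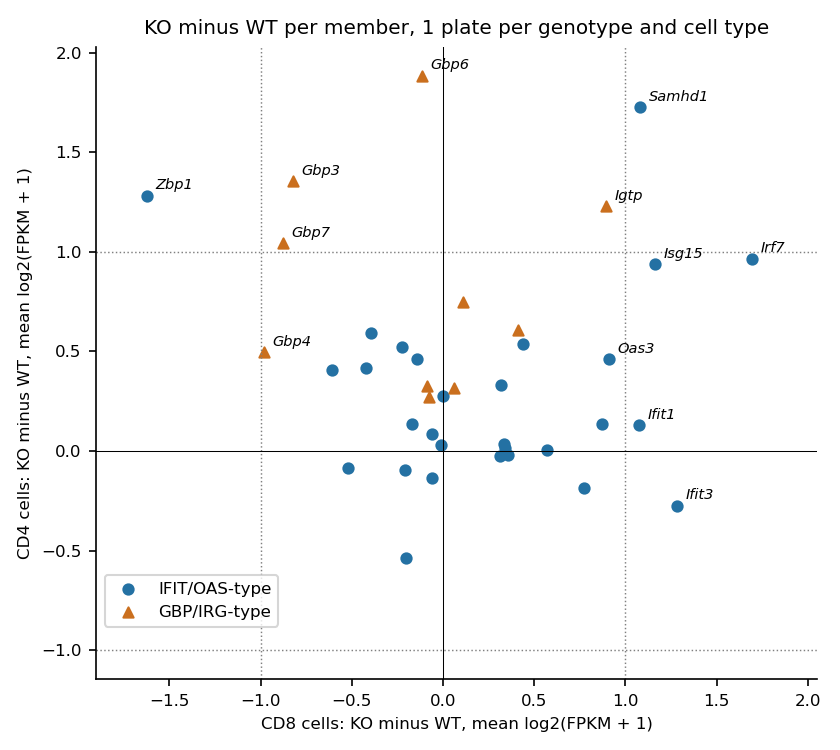
KO minus WT difference of plate means, log2(FPKM + 1), in CD8 cells (horizontal) and CD4 cells (vertical) for the 39 members, with dotted lines at 1 log2. GBP/IRG-type members all lie above 0 in CD4 cells, while Irf7, Ifit3 and Isg15 lie farthest to the right, and Zbp1 is lower in KO CD8 and higher in KO CD4 cells.

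Within both CD4 plates the GTPases were higher in cells with Foxp3, the factor that defines regulatory T cells. Foxp3 was detected in 37 of 78 KO CD4 cells (47.4%) and 27 of 74 WT CD4 cells (36.5%). Cells with Foxp3 exceeded cells without it by a median of 1.74 log2 (KO) and 1.69 log2 (WT) over the 10 GBP/IRG-type genes, and 9 of 10 were higher on both plates, against 39.6% of all genes. On both plates 8 of the 10 were higher by 1 log2 or more (Gbp3, Gbp4, Gbp6, Gbp7, Igtp, Irgm1, Irgm2 and Iigp1), against 4.91% of all genes. Igtp was detected in 81.1% of KO cells with Foxp3 and 41.5% of KO cells without it, and in 66.7% and 36.2% of WT cells. Of the IFIT/OAS-type genes, Samhd1, Isg20 and Zbp1 were higher by 1 log2 on both plates, and the class medians were 0.07 (KO) and 0.02 (WT). Samhd1 was detected in 94.6% of KO cells with Foxp3 and 53.7% of those without it, and in 77.8% and 46.8% of WT cells. Ifit3 was detected in 0 of 27 WT cells with Foxp3, which allows up to 11.1%, and in 19.1% of the 47 without it. In KO cells the direction was the opposite, with Ifit3 in 13.5% of cells with Foxp3 and 7.32% of those without it. Median detected genes were 2076 with and 2095 without Foxp3 in KO cells, and 2316 and 1966 in WT cells. Without the cells with Foxp3, the KO minus WT median was 0.52 over the 8 GBP/IRG-type genes that still passed the filter, 7 of them higher in KO, and 0.29 over all 10, with 8 higher and 2 lower. Igtp was then at 0.27 and Gbp3 at 0.22, while 2 genes were still higher in KO by 1 log2 or more. These were Gbp6, with means of 3.95 in KO and 2.14 in WT cells without Foxp3, and Gbp7, with 3.25 and 2.25.

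CD4 cells were compared with CD8 cells over the 4 plate means with limma, a linear model with a spread pooled over genes, keeping the source as a block. Iigp1, Gbp6 and Samhd1 were higher in CD4 cells and no member was lower, among 38 members tested. At adjusted p under 0.05 (Benjamini-Hochberg), 1.12% of 8427 genes were higher in CD4 cells and 6.32% lower, 7.44% in all. Iigp1 averaged 1.56 in KO and 1.29 in WT CD4 cells, against 0.11 in KO and 0.19 in WT CD8 cells, a difference of 1.27 log2 (SE 0.27, adjusted p = 0.000392). For each of the 3 genes both CD4 plates lay above both CD8 plates. Gbp6 averaged 5.06 in KO and 3.18 in WT CD4 cells, against 2.44 in KO and 2.56 in WT CD8 cells, a difference of 1.62 (SE 0.50, limma adjusted p = 0.0263). Samhd1 averaged 5.81 in KO and 4.09 in WT CD4 cells, against 3.85 in KO and 2.77 in WT CD8 cells, a difference of 1.64 (SE 0.55, limma adjusted p = 0.0412). Igtp, at 1.52 (SE 0.55), missed the threshold with an adjusted p of 0.0636. The member median was 0.16, or 0.39 for the GBP/IRG-type and 0.04 for the IFIT/OAS-type genes, against -0.27 over all genes. With 1 residual degree of freedom, the fit takes its spread from all genes, so the p-values do not measure the spread between mice. Without the cells with Foxp3 no member passed, and without the block Iigp1 alone passed. Fits without 1 plate also had no block, so their calls cannot show what a single plate adds.

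Most members were higher in the CD4 than in the CD8 Population libraries. Both CD4 libraries lay above both CD8 libraries for 31 of 39 members, against 17.7% of 12603 genes, and for none did both lie below, against 23.5%. The exceptions were Ifit2, Oasl2, Rsad2, Bst2, Trim25, Ifi35, Xaf1 and Gbp3. Iigp1 had 268.3 FPKM in KO and 97.9 FPKM in WT CD4, against 8.17 FPKM in KO and 3.89 FPKM in WT CD8. Igtp had 1700.1 and 1126.2 FPKM in KO and WT CD4, against 298.2 and 222.8 FPKM in KO and WT CD8. Ifit1 had 249.3 FPKM in KO and 289.1 FPKM in WT CD4, against 150.6 FPKM in KO and 16 FPKM in WT CD8. Samhd1 had 652.5 and 446.5 FPKM in KO and WT CD4, against 181.3 and 115.2 FPKM in KO and WT CD8. In each of these the CD4 libraries did not overlap the CD8 libraries.

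The same limma fit on these 4 libraries called 17 members higher in CD4 and 0 lower, against 1.60% of all genes higher and 3.33% lower. They were 7 GBP/IRG-type members (Igtp, Iigp1, Gbp6, Irgm1, Irgm2, Gbp7 and Gbp4) and 10 IFIT/OAS-type members (Isg20, Ifit1, Samhd1, Ifit3, Irf7, Dhx58, Oas1a, Usp18, Parp9 and Irf9). The member median was 1.36 log2, against -0.12 over all genes. Igtp differed by 2.42 log2 (SE 0.34, adjusted p = 4.18e-10) and Ifit1 by 2.41 (SE 0.47, adjusted p = 3.53e-05) in this limma fit. It too has 1 residual degree of freedom and takes its spread from all genes, so these p-values do not measure the spread between mice. The calls rest on the block, since 0 members passed without it. Fits without 1 library also had no block, so their calls cannot show what a single library adds. Without the block or without any 1 library the member median lay between 1.28 and 1.53. T cell markers summed to 5750.2 FPKM in KO and 5826.9 FPKM in WT CD4, against 5002 FPKM in KO and 6684.1 FPKM in WT CD8. Myeloid markers summed to 392.4 and 54.7 FPKM in KO and WT CD4, against 494.8 and 346.5 FPKM in KO and WT CD8. Plasmacytoid markers other than Bst2 moved with the difference. Siglech had 139.3 FPKM in KO and 76.7 FPKM in WT CD4, against 76.6 FPKM in KO and 0 in WT CD8, and Ccr9 had 55.5 and 75.2 FPKM in KO and WT CD4, against 13 FPKM in KO and 0 in WT CD8. The 3 NK cell markers summed to 258.5 and 15.6 FPKM in KO and WT CD4, against 490.6 and 221.9 FPKM in KO and WT CD8. The part of these cells was not tested. Ifit2 was listed at 0 in the WT CD4 library and at 103.8 FPKM in KO CD4, against 33.5 FPKM in KO and 38 FPKM in WT CD8.

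**Figure D5:**
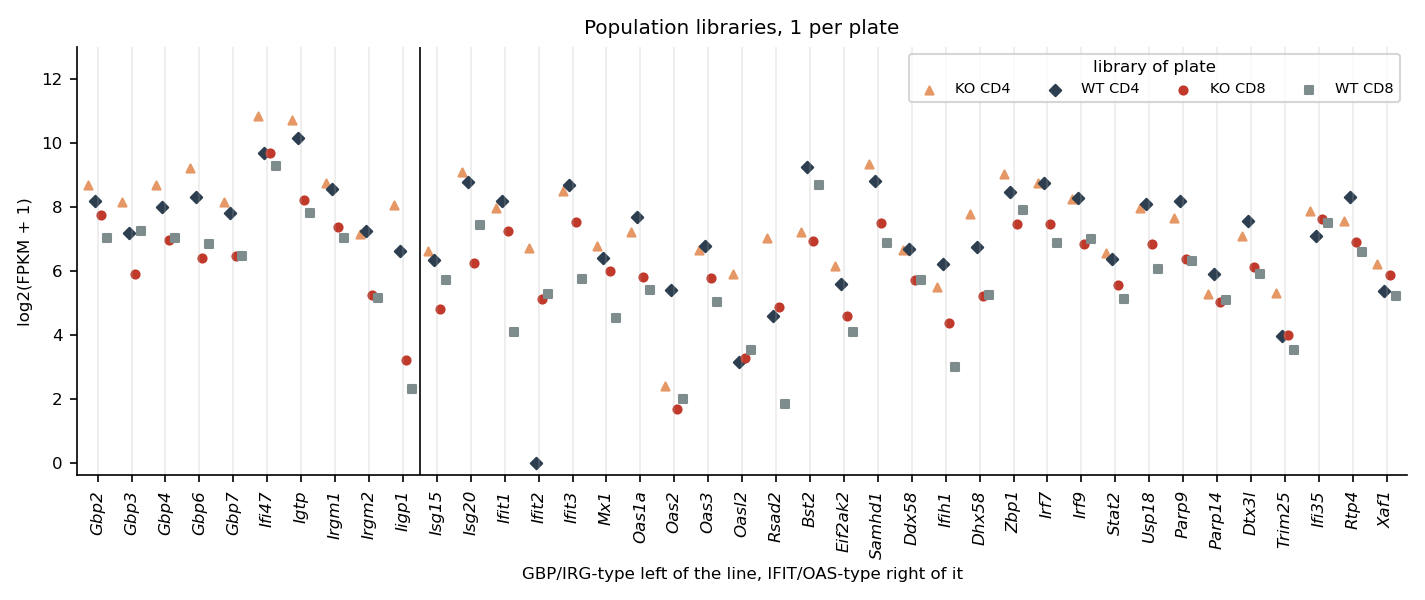
Level of each member in the 4 Population libraries, log2(FPKM + 1), GBP/IRG-type left of the line. The CD4 libraries lie above the CD8 libraries for 31 of the 39 members, with the widest gap for Iigp1, and Ifit2 is at 0 in the WT CD4 library.

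Of 20 other genes of the interferon pathway, 18 passed the filter in CD8 cells. Their median KO minus WT difference was 0.01 log2, against -0.22 over all genes that passed. Socs1 (2.30 log2), which blocks JAK kinases, Socs3 (1.99) and Ifngr1 (1.32) were higher in KO by 1 log2 or more, against 2.07% of all genes. Irf8 (-1.24) was lower by that much, against 9.19% of all genes. The phosphatases Ptpn2 (0.79) and Ptpn6 (-0.38) differed by less. In CD4 cells 17 passed, and Socs1 (1.59) and Irf1 (1.46), a transcription factor that activates ISGs, were higher, against 2.53% of all genes. Socs1 was detected in 55.8% of KO and 27.8% of WT CD8 cells and in 53.9% of KO and 31.1% of WT CD4 cells. In the Population libraries Socs1 differed by 1.17 log2 in CD8 and 0.28 in CD4, and Socs3 by 1.30 in CD8 and -0.29 in CD4. Ifnb1 and Ifnlr1 were detected in no kept cell, which allows shares of up to 3.85% to 4.17% per plate. Ifng was detected in 8.97% of KO and 5.41% of WT CD4 cells, against 24.7% of KO and 27.8% of WT CD8 cells, and was lower in CD4 cells by 1.24 log2 (SE 0.35, limma adjusted p = 0.0118). Ptpn6, a phosphatase, was lower in CD4 cells too (-2.59, limma adjusted p = 0.000176). The other 16 pathway genes tested did not pass. Over all genes of this fit 1.12% were higher and 6.32% lower in CD4 cells. In the Population fit Irf1 and Socs3 were among the pathway genes higher in CD4, and Ifng was lower. Over all genes of that fit 1.60% were higher and 3.33% lower.

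Other genes followed the members from cell to cell. Among 5235 genes detected in at least 10% of the cells of every plate, Tap1, a peptide transporter of antigen presentation, followed the number of IFIT/OAS-type members best, with rank correlations of 0.28 to 0.41 on the 4 plates after adjustment for detected genes. Gm12250, Trafd1, Trim30d, Ifi27l2a, Ly6a, Tmem104, B2m, Pml and H2-D1 came next, and the lowest of their correlations was 0.16. Among the genes that followed the number of GBP/IRG-type members most closely were Ly6a, Irf1, Tapbp, Tgtp2, Psmb8, Pydc3, Ly6e, Tgtp1 and Mitd1, with a lowest correlation of 0.17. The likeness is the lowest of 4 correlations over 72 to 78 cells, describes cells of shared libraries and carries no test.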

How the data were processed

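Transcripts of 384 wells were measured by Smart-seq2, full-length cDNA sequencing without molecular identifiers, after 21 cycles of PCR per the labels' protocols. The authors deposited 1 table of TMM-normalized FPKM values for 23420 genes. Bowtie, RSEM and build mm10 were used per the submitters' processing notes, and their versions, the gene annotation and the strand setting were not given in the sources used here. Reads shared by related genes are split by RSEM's model. The deposited values hold no counts, so read depth is unknown and the number of detected genes stands in for it.

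The members, classes and gene lists were chosen with earlier results of these data known. From the FPKM values, log2(FPKM + 1) was averaged per plate over kept cells, and a gene entered a comparison if detected at 1 FPKM or more in 10% of kept cells of a plate. A difference on this scale carries the share of cells with detection and understates changes of low genes. Genotype was not tested. CD4 plates were set against CD8 plates with limma 3.58.1 in R 4.3.3 (eBayes with trend, source as block). Python 3.11.15 and scipy 1.17.1 gave the other values. The same fit on the Population libraries was run beside it, and its own alternatives were added after seeing the data.

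Values in full are given for members that differ by 1 log2 or more between genotypes, that were called between CD4 and CD8, or that are the 3 most often detected of their role group. Alternatives covered the pseudocount, gene and cell filters, matching on detected genes, arithmetic means, plates left out and the block. Planned removal of cells with 1 FPKM or more of a foreign marker could not be run, because its markers, Tyr above all, put all but 2 of the kept cells in that class, and the limit of 10 FPKM without Tyr was chosen after seeing the data. Gene positions are those of GENCODE M21 (GRCm38). Trac and Adgre1, from the marker lists, were not matched to a row. The values of 1 further pathway gene are not reported here.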

Additional observations from a re-analysis of the deposited data

Results flagged for a closer look

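Zbp1 was marked because its genotype difference has opposite signs in the 2 cell types. KO minus WT was -1.62 log2 in CD8 cells and 1.28 log2 in CD4 cells. The Population libraries gave the same signs with smaller sizes, -0.43 for the CD8 and 0.55 for the CD4 libraries. The difference between the cell types was not tested, since each group is 1 plate.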

How the results depend on the processing

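Differences are KO minus WT medians in log2. For IFIT/OAS-type genes in CD8 cells, 0.31 became 0.16 with pseudocount 10, -0.10 with the 25% gene filter, 0.032 in cells with 2000 or more detected genes, 0.45 in cells matched on detected genes, 0.55 with arithmetic means, and in the core of 12 it was 0.89 with and 0.82 without the gene filter. For GBP/IRG-type genes in CD8 cells, -0.09 became -0.25 and 0.041 with pseudocounts 0.1 and 10, 0.13 and -0.35 in cells with 500 and 2000 or more detected genes, 0.37 with arithmetic means, 0.22 in Population libraries and -0.34 without mixed cells, so it has no stable sign. For IFIT/OAS-type genes in CD4 cells, 0.20 became 0.31 and 0.095 with pseudocounts 0.1 and 10, 0.41 with the 25% filter, 0.31 in cells with 500 or more detected genes, 0.36 in matched cells, 0.47 with arithmetic means, 0.00074 in Population libraries and 0.33 without cells with Foxp3. For GBP/IRG-type genes in CD4 cells, 0.68 became 0.86 and 0.50 with pseudocounts 0.1 and 10, 1.12 in cells with 2000 or more detected genes, 0.89 in matched cells, 0.84 with arithmetic means, 1.06 without mixed cells and 0.52 without cells with Foxp3, or 0.29 with no gene filter as well. The settings that join the core or Foxp3 with no filter were added after seeing the data. The causes of these shifts were not tested. Isg15 in CD8 cells was -0.90 in Population libraries.

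The share of cells with 5 or more IFIT/OAS-type members, detected at 10 FPKM, was 46.8% in KO CD8, 58.3% in WT CD8, 60.3% in KO CD4 and 51.4% in WT CD4 cells. Among cells with 2000 or more detected genes it was 87.9% in WT CD8, 93.6% in KO CD4 and 100% in WT CD4 cells. In KO CD4 cells it was 91% at 0.1 FPKM and 92.1% in matched cells.

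The number of members called in CD4 minus CD8, 3, was 17 in Population libraries, 1 with no replicate block, with pseudocount 0.1 and without mixed cells, and 0 with pseudocount 10, the 25% filter, cells with 2000 or more detected genes or no cells with Foxp3. In Population libraries 17 became 0 with no replicate block. Fits without 1 plate or 1 library also dropped the block, so their calls are not given. The source block pairs the CD4 and CD8 plates of KO4 and of WT4.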

Other observations

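Members stood higher in the Population libraries than in the mean of the single cells of the same plate. The Population value was above the mean FPKM of kept cells for 27 of 39 members in KO CD8, 36 in WT CD8, 38 in KO CD4 and 37 in WT CD4, with median log2 ratios of 0.32, 0.66, 1.15 and 1.44 in the same order. The order of the members was close in both, with Spearman's rho across the 39 genes of 0.93 in KO CD8, 0.95 in WT CD8, 0.93 in KO CD4 and 0.89 in WT CD4. Genes are not independent replicates, so these carry no test. The share over all genes was not computed, so the counts and ratios do not set the members or a plate apart.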
